A study of Mus musculus with 9 samples.

Results

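The genes of the respiratory chain were followed in dorsal root ganglia (DRG), the clusters of sensory neurons beside the spinal cord, of mouse embryos at E18.5. They were taken from the count table by name: every gene of the mitochondrial chromosome (names starting with mt-) and nuclear genes whose names follow the main patterns for subunits of complex I (Nduf), II (Sdh), III (Uqcr), IV (Cox) and V (Atp5). A few related names fall outside these patterns, such as Ndufab1 and Ndufa4l2, which are counted with a list of other genes at the end. The rule found 122 of 55247 genes, of which 37 are mitochondrial and 85 nuclear, among these 1 processed pseudogene (Cox6c2, at most 26 counts). RNA was sequenced in 9 libraries of 3 genotypes, 3 libraries each. WT embryos carried neither allele. Isl1Cre/+ embryos carried Cre recombinase in 1 copy of Isl1, a gene of sensory and motor neurons. Isl1Cre/+::Meis2LoxP/LoxP embryos, called mutant here, carried the same Isl1Cre allele together with Meis2, a homeodomain transcription factor, flanked by LoxP sites at exon 8 on both copies. Cre therefore acts in cells that express Isl1 or descend from them, while other cells of the ganglion keep Meis2. The labels do not say whether the 3 libraries of a genotype came from separate embryos or pools, so the p-values measure the spread between these libraries.

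The respiratory chain passes electrons from NADH (complex I) and succinate (complex II) over complex III to oxygen at complex IV, and complex V uses the proton gradient built on the way to make ATP. Its subunits come from 2 genomes. The mitochondrial chromosome codes for 13 of them, together with 2 rRNAs and 22 tRNAs, and is copied from both strands into long RNAs that are cut at the tRNAs. Most of the mRNAs are then given poly(A) tails, which mt-Nd6 is known to lack. All other subunits are made in the cytosol from nuclear genes and imported, and neurons with long axons depend strongly on this machinery.

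The libraries held 23854607 to 29103444 counts. Meis2 itself was counted 2919, 2902 and 2746 times in the WT libraries, 2806, 2857 and 2537 times in the Isl1Cre/+ libraries and 1084, 1073 and 1004 times in the mutant ones, in keeping with the labels. The 12 sensory neuron markers summed to 7406 to 9941 CPM (counts scaled to a library of 1000000 counts) and none was at 0 in any library. The 10 skeletal muscle markers summed to 606.1, 164.0 and 1179 CPM in the WT libraries, 160.6, 226.1 and 79.2 CPM in Isl1Cre/+ and 186.6, 2738 and 778.2 CPM in the mutant, and the 7 red cell markers to 347.9 to 3976 CPM, again with no marker at 0. Library WT 1 stood apart in base composition: across all tested genes with a known sequence, its difference from the median of the 9 libraries had a correlation with GC content of 0.4, against -0.19 to 0.26 in the other libraries.

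Before any comparison of genotypes, the counts of 5 of the 13 mitochondrial mRNAs were almost missing from all libraries. mt-Co2, which codes for the subunit of complex IV that takes electrons from cytochrome c, had 11 to 67 counts, mt-Co3 of the same complex 7 to 45, mt-Atp6 and mt-Atp8 of complex V 15 to 87 and 3 to 21, and mt-Nd4l of complex I 0 to 11. Their neighbours on the same precursor RNA, mt-Co1 and mt-Nd4, had 174360 to 510129 and 62122 to 206979 counts. The only zero, mt-Nd4l in mutant 3, allows up to 3 counts at this depth.

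A stretch of chromosome 1 in mm10 holds a copy of this part of the mitochondrial chromosome. The copies are annotated as Gm29216 (of mt-Co1), Gm28661 (mt-Co2), Gm10925 (mt-Atp6), Gm28437 (mt-Co3), Gm28438 (mt-Nd3), Gm10222 (mt-Nd4l) and Gm28439 (mt-Nd4), and they occupy 4663 bases on the minus strand (chr1:24611535-24616197). The authors kept only reads that mapped to 1 place in the genome. The sequences show how close the copies are. The whole of mt-Nd4l (chrM:9877-10173, plus strand) is given first, since its first 294 bases are found without any difference in Gm10222 (chr1:24612407-24612700). The other lines give the first 60 bases shared by mt-Co1 (chrM:6381-6440) and Gm29216 (chr1:24616138-24616197), where the copy begins inside the gene, and by mt-Nd3 (chrM:9459-9518) and Gm28438 (chr1:24613060-24613119). Capitals mark the bases that differ, and all sequences run 5′ to 3′ on the strand of the gene.
mt-Nd4l: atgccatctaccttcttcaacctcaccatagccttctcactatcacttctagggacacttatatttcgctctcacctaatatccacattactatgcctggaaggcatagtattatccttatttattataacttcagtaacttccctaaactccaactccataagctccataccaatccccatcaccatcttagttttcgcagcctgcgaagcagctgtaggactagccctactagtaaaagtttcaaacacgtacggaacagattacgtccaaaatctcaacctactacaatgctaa
mt-Co1: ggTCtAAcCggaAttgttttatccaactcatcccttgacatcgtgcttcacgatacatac
Gm29216: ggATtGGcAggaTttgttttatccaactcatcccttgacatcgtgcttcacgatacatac
mt-Nd3: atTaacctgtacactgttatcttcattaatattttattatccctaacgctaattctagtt
Gm28438: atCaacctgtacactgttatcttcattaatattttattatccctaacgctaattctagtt

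Over the copied part, mt-Co1 and Gm29216 differed at T1056A, C1057T, A1059G, A1060G, C1062A and A1066T, counted from the first base of mt-Co1, with the base of mt-Co1 first. The 479 bases of mt-Co1 after the last of these were identical in the copy. mt-Nd3 differed from its copy only at T3C, counted in the same way. The copied bases of mt-Co2 (681), mt-Atp6 (678), mt-Co3 (783), mt-Nd4l (294) and mt-Nd4 (876) held no difference at all.

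To describe this for every mitochondrial mRNA, the share of its 84-base windows that occur unchanged in another annotated gene was counted, 84 bases being the length of the sequenced reads. Reads are shorter once the unique molecular identifier is removed, so the share for the aligned part may be higher. It was 99.9% for mt-Co3, 99.5% for mt-Co2 and mt-Atp6, 98.6% for mt-Nd4l and 97.7% for mt-Nd3, then 61.2% for mt-Nd4, 35.8% for mt-Co1, 4.8% for mt-Nd2, 0.7% for mt-Nd5 and 0 for mt-Nd1, mt-Cytb, mt-Nd6 and mt-Atp8. mt-Atp8 is an exception in this list. No annotated gene holds its windows, but its place in the copy is the unannotated stretch of 233 bases between Gm10925 and Gm28661 (chr1:24614652-24614884), whose sequence was not analysed here, and it shares 43 bases with mt-Atp6. mt-Nd3 is an exception of the other kind, with 3244 to 8453 counts in spite of its share. The copies on chromosome 1 themselves had 5 to 398 counts.

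**Figure D1:**
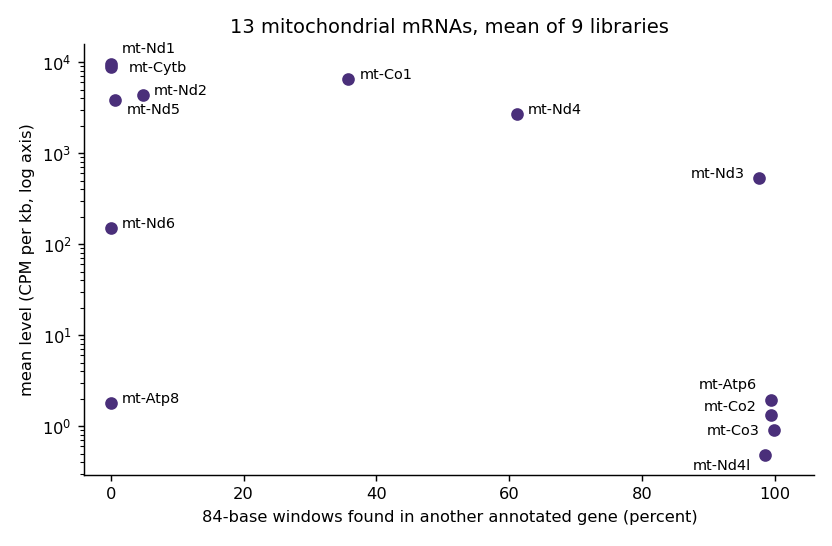
Mean level of the 13 mitochondrial mRNAs over the 9 libraries (CPM per kb of exon, log axis) against the share of their 84-base windows found in another annotated gene (percent). The 4 genes at 98.6% to 99.9% lie between 0.48 and 1.96 CPM per kb, mt-Nd3 at 97.7% lies at 532.1, and mt-Atp8 lies at 1.80 with a share of 0.

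Per length, mt-Nd1 had the highest counted level of the mitochondrial mRNAs, with a mean of 9654.9 CPM per kb over the 9 libraries, and mt-Nd4l had the lowest counted level, 0.48. With 98.6% of its windows elsewhere, this level does not rank its abundance, nor do those of the other mRNAs with such windows. Between these, mt-Cytb, the subunit of complex III from this genome, had 8868.8 CPM per kb, mt-Co1, the catalytic subunit of complex IV, 6524.7, mt-Nd2 4379.5, mt-Nd5 3868.3 and mt-Nd4 2661.0. When the level was taken per 1000 windows found in no other annotated gene instead, mt-Co1 had 10735.6 CPM and mt-Nd4 7304.6, beside 10571.7 for mt-Nd1 and 9562.6 for mt-Cytb, so mt-Co1 then stood above mt-Nd1, and mt-Nd4 above mt-Nd2 and mt-Nd5. mt-Nd6, the only mRNA coded by the light strand, had 148.7 CPM per kb. The rRNAs mt-Rnr1 and mt-Rnr2, which carry short tails and are mostly lost in poly(A) selection, had 557.1 and 461.9 CPM per kb.

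The mitochondrial genes took between 3.04% and 8.58% of all counts. The share was 8.58%, 3.83% and 3.09% in WT libraries (5.17% ± 2.98, SD, n = 3), 3.04%, 3.25% and 3.99% in Isl1Cre/+ (3.43% ± 0.502) and 7.19%, 5.37% and 3.33% in mutant libraries (5.30% ± 1.93). WT 1 and the mutant libraries 1 and 2 lay above all others. The groups overlapped in every pair of genotypes, since the lowest WT and mutant libraries lay within the range of Isl1Cre/+.

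The 85 nuclear members together stayed near 1% of all counts. Their summed level was 10581.1, 9586.6 and 9731.1 CPM for WT, 9995.2, 9957.0 and 9734.9 CPM for Isl1Cre/+ and 10016.0, 10737.6 and 9738.5 CPM for the mutant. The highest library was 1.12-fold above the lowest, against 2.82-fold for the mitochondrial share. For each count of a nuclear member there were 3.04 to 8.10 mitochondrial counts, the highest in WT 1 and mutant 1 (7.18). WT 1 was the deepest library, and mutant 1, with 27783441 counts, was below 6 of the others in depth. The part of depth in the mitochondrial share was not tested.

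**Figure D2:**
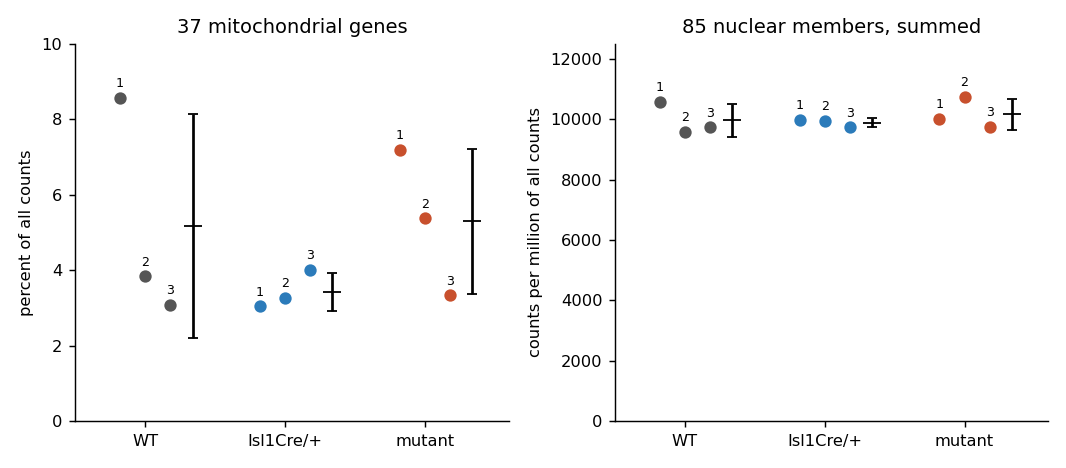
Share of all counts on the 37 mitochondrial genes (left, percent) and summed level of the 85 nuclear members (right, CPM) in each library, numbered by replicate, with the mean and SD of each genotype beside the points. The mitochondrial share runs from 3.04% to 8.58% and the nuclear sum from 9586.6 to 10737.6 CPM.

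The proportions of the abundant mitochondrial mRNAs varied less between libraries than the total. Of the mRNA counts, 6 mRNAs (mt-Nd1, mt-Nd2, mt-Nd4, mt-Nd5, mt-Cytb and mt-Co1) held at least 99.23% in each library. The share of mt-Co1 among them was 20.9% to 24.2%, that of mt-Cytb 20.9% to 25.1%, that of mt-Nd1 18.9% to 22.8%, that of mt-Nd2 9.16% to 11.1%, that of mt-Nd5 14.8% to 16.4% and that of mt-Nd4 7.72% to 8.47%. Each varied by at most 1.21-fold, against 2.82-fold for the share of all counts. The rRNAs varied more, with 20.7 to 34.9 counts per 1000 mRNA counts, the lowest in WT 1 and mutant 1, the libraries with the largest mitochondrial shares (1.68-fold in all). mt-Nd6 varied 2.29-fold, with 1.09 counts per 1000 of the other mRNAs in WT 1 and 1.5 in mutant 1, against 2.11 and 2.49 in WT 2 and WT 3 and 2.16 and 2.24 in mutant 2 and mutant 3. In Isl1Cre/+ libraries it was 1.38, 1.67 and 1.77, within the range of WT and with Isl1Cre/+ 1 below mutant 1.

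Among the nuclear members, levels per length were highest in complex IV. Cox6a1 and Cox6b1, which are regulatory subunits, had 365.2 and 334.6 CPM per kb. In complex V, Atp5b and Atp5a1, the catalytic beta and alpha subunits, had 246.0 and 226.9. Uqcrh and Uqcr10 of complex III had 142.1 and 107.8, Ndufa4 and Ndufc2 138.8 and 115.0, and Sdhb and Sdhd of complex II 80.9 and 66.3. Ndufa4 carries a complex I name but is known as a component of complex IV. Cox6a1 is shown with its promoter because it was the most abundant nuclear member per length and holds the motif of NRF1, a factor known to bind promoters of respiratory genes (250 bases before the RefSeq start on the minus strand of GRCm38.p6, chr5:115348959-115349208, motif in capitals).
Cox6a1: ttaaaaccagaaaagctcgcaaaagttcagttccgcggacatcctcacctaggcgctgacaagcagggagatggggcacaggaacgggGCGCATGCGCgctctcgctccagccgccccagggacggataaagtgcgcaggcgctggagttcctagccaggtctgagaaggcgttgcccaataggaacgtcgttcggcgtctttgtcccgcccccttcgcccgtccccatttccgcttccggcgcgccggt

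The letters GCGCATGC, a core of this motif searched on both strands (matches on the 2 strands may overlap), were found in 8 of 68 nuclear members with a RefSeq promoter (11.8%: Atp5g2, Atp5k, Atp5l, Cox6a1, Ndufa11, Ndufa6, Ndufa8 and Sdhb) and in 2.32% of all 27025 promoters. ACTTCCGG, a motif of ETS factors searched on both strands, was found in 3 members (4.4%: Atp5h, Uqcr11 and Uqcrh) and in 2.93% of all promoters, and AAGATGGC, a motif of YY1 searched in the same way, in 0 members and 1.59%. A longer palindromic form of the NRF1 motif, the 10 letters in capitals above, was searched before the core and was found in 4 members (5.9%) and 0.781% of all promoters. The core was taken after these counts had been seen. These are matches of letters in the 250 bases before the start, and binding was not measured.

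Isoforms of complex IV known from other tissues stood far below their general partners. Cox6a2 and Cox8b, isoforms of heart and skeletal muscle, had means of 6.78 and 3.08 CPM per kb, against 365.2 for Cox6a1 and 252.6 for Cox8a. Mutant 2 carried much of both, and without it, a choice made after seeing the data, the means were 3.92 and 1.75 CPM per kb. Cox7a1, also of muscle, had 2.95, beside 152.7 for Cox7a2, and Cox4i2, known from lung, 3.32, beside 179.8 for Cox4i1. Cox6b2, known from testis, had 7.0, beside 334.6 for Cox6b1, and Cox7b2 0.445, beside 193.7 for Cox7b. Cox8c, likewise of testis, had no count in any library. Cox7a2l, which matches the rule by name but is a factor for joining complexes III and IV, had 54.8 CPM per kb. Fewer cells of a type and less RNA per cell cannot be told apart in whole ganglia.

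Genotypes were compared for the members that reached 100 counts in any library. These were 92 of the 122, namely 8 mitochondrial mRNAs, both rRNAs, 3 tRNAs and 79 nuclear members (36 of 36 in complex I, 4 of 4 in II, 8 of 8 in III, 14 of 19 in IV and 17 of 18 in V). The 5 mRNAs with at most 87 counts in any library were too low to be tested. A gene was called changed when its fold change was at least 1.2 at an unadjusted p under 0.05 in edgeR's quasi-likelihood test. These are the thresholds of the study, which applied them to limma voom; with limma voom here, the members called in the 3 comparisons below were 0, 3 (3.26%) and 1 (1.09%), beside 0.303%, 1.17% and 1.06% of all genes. The comparisons share libraries, so a low or high library of one genotype enters 2 of them.

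The mutant was compared with WT to ask what changes without Meis2 and with 1 copy of Isl1. None of the 92 members met the criterion, where 0.318% of all 13200 genes tested did. In edgeR the count at an unadjusted p under 0.05, without the fold limit, was also 0 (0.371% of all genes), and none met the criterion with DESeq2 or limma voom. The median log2 fold change was 0.011 for the nuclear members, of which 45 of 79 were higher in the mutant, and 0.004 for the mitochondrial mRNAs, beside -0.009 for all genes, of which 46.2% were higher. The largest differences were those of Cox6a2 (log2 fold change 1.12 ± 0.89, SE), Cox8b (1.08 ± 0.90) and mt-Tm (-0.97 ± 0.82). In 3 members, Ndufa4, Ndufa8 (complex I) and Atp5g1 (complex V), all mutant libraries lay above all WT libraries, which is 3.26% of the members beside 2.61% of all genes. Ndufa4 had 183.5, 188.3 and 187.4 CPM in WT and 198.6, 205.5 and 190.5 CPM in the mutant, and its log2 fold change was 0.07 ± 0.09.

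These medians depended on single libraries. Without WT 1, 78 of 79 nuclear members were higher in the mutant, beside 51.6% of all genes, with a median of 0.13, and the median of the mitochondrial mRNAs was 0.61. The latter was -0.18 without WT 2, -0.26 without WT 3, -0.34 without mutant 1, 0.06 without mutant 2 and 0.27 without mutant 3. Without WT 1, 4 members (4.35%) met the criterion, mt-Rnr1, Ndufb7, Ndufb8 and Uqcr11, beside 1.0% of all genes. Without WT 2, 28 of the 79 were higher, beside 46.1% of all genes. Without mutant 3, 2 members (2.17%) met the criterion, mt-Nd6 and Atp5md, beside 0.364% of all genes.

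The mutant and Isl1Cre/+ differ by the floxed Meis2 alleles. Here 9 of the 92 members met the criterion and all 9 were higher in the mutant, where 1.67% of all genes tested did (1.41% as higher). They were 5 mitochondrial mRNAs (mt-Nd4, mt-Nd5, mt-Nd6, mt-Cytb and mt-Co1), both rRNAs and the isoforms Cox6a2 and Cox8b. None passed Benjamini-Hochberg adjustment over all genes (edgeR, adjusted p = 0.9997 for each), which 0.00758% of all genes did. The 8 tested mitochondrial mRNAs had log2 fold changes of 0.51 to 0.87 with a median of 0.65, while the nuclear members had a median of 0.08 with 70 of 79 higher, beside 0.000 and 50.2% for all genes. The median of the mitochondrial mRNAs was 0.32 without mutant 1 and 0.91 without mutant 3, the lowest and highest values with 1 library left out. That of the nuclear members was 0.05 without mutant 2 (56 of 79 higher, beside 49.8% of all genes) and 0.13 without mutant 3 (76 of 79, beside 50.1%).

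mt-Co1 had 17528.1, 8307.6 and 6656.1 CPM in WT, 6446.2, 7320.0 and 8498.5 CPM in Isl1Cre/+ and 16108.0, 12552.6 and 7309.3 CPM in the mutant. Mutant 3 lay within the range of Isl1Cre/+ and WT 1 above every mutant library. The log2 fold change of mutant against Isl1Cre/+ was 0.73 ± 0.29 (SE). mt-Rnr1 had 381.3, 349.1 and 483.0 CPM in Isl1Cre/+ and 703.5, 783.8 and 429.9 in mutant libraries, with the same order of groups and the same overlap through mutant 3 (0.69 ± 0.24). The other 4 called genes with overlapping groups, mt-Nd4, mt-Nd5, mt-Cytb and mt-Rnr2, had log2 fold changes of 0.67, 0.66, 0.64 and 0.65. mt-Nd1 (0.64 ± 0.31), mt-Nd2 (0.63 ± 0.30) and mt-Nd3 (0.51 ± 0.25) did not meet the criterion. Of 16 other settings and left-out libraries, 7 ended the call of mt-Co1, 9 that of mt-Nd4, 7 that of mt-Nd5, 10 that of mt-Cytb, 6 that of mt-Rnr1 and 7 that of mt-Rnr2.

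mt-Nd6, a complex I subunit, was the only one of the 13 tested mitochondrial genes whose libraries separated the 2 genotypes. Its level is that in poly(A)-selected RNA. It had 91.3, 78.3 and 74.2 CPM in WT, 40.7, 52.8 and 68.2 CPM in Isl1Cre/+ and 105.1, 111.8 and 72.1 CPM in the mutant. Every mutant and every WT library lay above every Isl1Cre/+ library, and the nearest values were Isl1Cre/+ 3 at 68.2 and mutant 3 at 72.1. The log2 fold change was 0.87 ± 0.23 (SE) for mutant against Isl1Cre/+, -0.62 ± 0.20 for Isl1Cre/+ against WT and 0.23 ± 0.20 for mutant against WT. The first 2 met the criterion, the third did not, and both calls use the same 3 Isl1Cre/+ libraries. A two-sided exact permutation test of the CPM gave p = 0.1 for each of these calls and p = 0.4 for mutant against WT. With 3 libraries against 3, groups that do not overlap always give 0.1, the smallest p that this exact permutation test allows. The 0.1 therefore restates the separation for which mt-Nd6 was singled out and adds nothing to the calls. Both calls were kept under all 16 other settings and left-out libraries, with log2 fold changes of 0.70 to 1.07 and of -0.84 to -0.45. The adjusted p in these settings ran from 0.0504 (DESeq2) to 1.0 against the mutant and from 0.608 to 1.0 against WT. mt-Nd6 lies on the other strand from mt-Nd5 and shares 14 bases with its end. The strand option of the counting is not stated, so RNA of the opposite strand may have been counted anywhere along mt-Nd6. Over the 9 libraries mt-Nd5 had a mean of 7055.7 CPM and mt-Nd6 of 77.2 CPM. How much of the mt-Nd6 count is its own RNA was not tested.

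Separation of the groups was not more frequent among the members as a whole. In mutant against Isl1Cre/+, 6 of 92 members (6.52%) did not overlap, all higher in the mutant, beside 8.08% of all genes. These were mt-Nd6, Cox6a2, Cox8b, Ndufa8, Atp5f1 and Atp5g1. Atp5g1, a subunit of the c-ring, had 50.5, 53.2 and 53.4 CPM in Isl1Cre/+ and 60.1, 58.2 and 57.5 CPM in the mutant, but its log2 fold change of 0.19 ± 0.06 was below the 1.2-fold limit, as was that of Ndufa8 (0.13 ± 0.05).

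Cox6a2 had 112, 39 and 181 counts in WT, 45, 39 and 29 counts in Isl1Cre/+ and 47, 532 and 94 counts in the mutant. Mutant 2 stood alone at the top and mutant 1 next to Isl1Cre/+ 1. Cox8b had 23, 11 and 48 counts in WT, 10, 12 and 3 counts in Isl1Cre/+ and 14, 130 and 18 counts in the mutant, in nearly the same order. The log2 fold changes of mutant against Isl1Cre/+ were 2.71 ± 0.86 (SE) for Cox6a2 and 2.81 ± 0.99 for Cox8b. Without mutant 2 they were 1.09, still meeting the criterion, and 1.1, no longer meeting it. Of 15 other settings and left-out libraries, 3 ended the call of Cox6a2 and 4 that of Cox8b. The skeletal muscle markers moved with both: mutant 2, WT 3, mutant 3 and WT 1 had the 4 highest sums of the 10 markers and also the 4 highest levels of Cox6a2, and all 10 markers met the criterion in the same direction in this comparison. Red cell markers did so as well (7 of 7). Cartilage and bone markers were higher in 4 of 4 tested (1 met the criterion), macrophage markers in 6 of 6 and fibroblast markers in 5 of 6 (0 in both). Endothelial markers were higher in 0 of 5 (1 met the criterion as lower), and those of Schwann and satellite glia in 2 of 8. The part of such cells in the difference was not tested. Cox6a1 and Cox8a, the general isoforms, had log2 fold changes of 0.03 and 0.15.

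Among the 3 libraries with the largest mitochondrial shares, WT 1 (8.58%) had 606.1 CPM of muscle markers, mutant 1 (7.19%) 186.6 CPM and mutant 2 (5.37%) 2738 CPM. Their sensory neuron markers summed to 9941.2 CPM in WT 1 and 9333.5 CPM in mutant 1, the highest sums, and to 7406.4 CPM in mutant 2, the lowest. WT 3 and mutant 3 had 1179 and 778.2 CPM of muscle markers, with mitochondrial shares of 3.09% and 3.33%. The remaining libraries had 79.2 to 226.1 CPM of muscle markers and shares of 3.04% to 3.99%. In mutant against Isl1Cre/+, 4 of 12 sensory neuron markers were higher (median log2 fold change -0.04), and all 8 tested mitochondrial mRNAs were. The part of the cell types in the mitochondrial share was not tested.

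**Figure D3:**
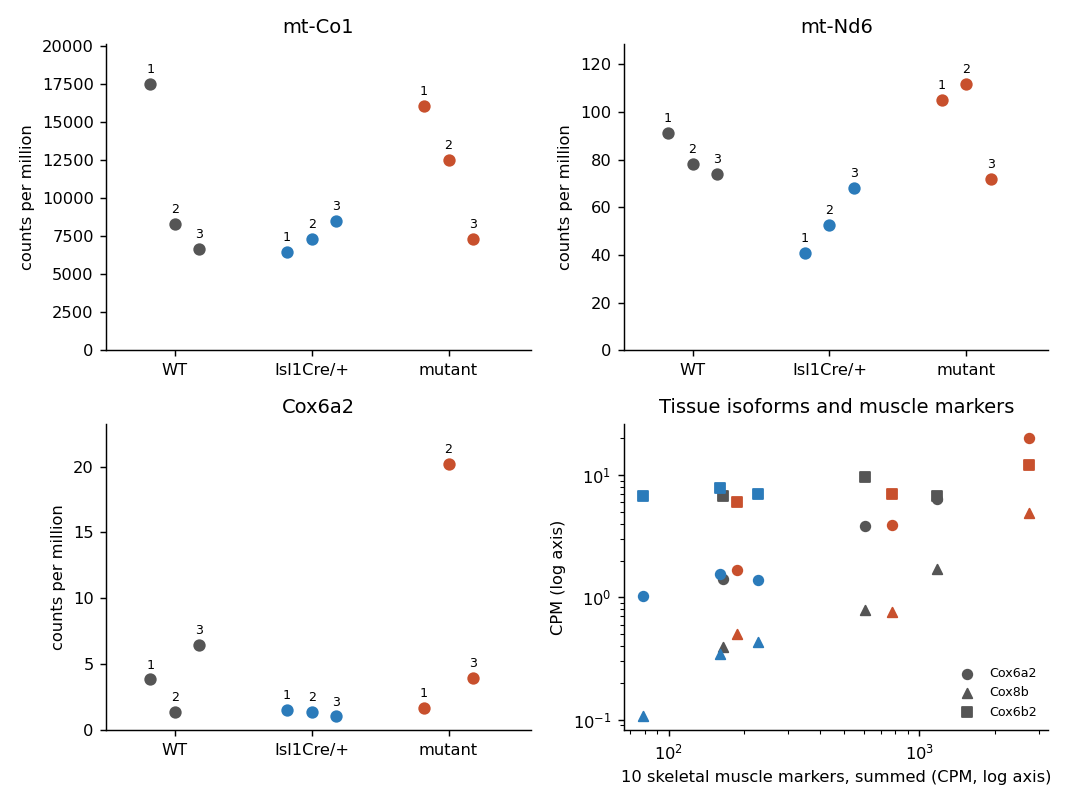
Levels of mt-Co1, mt-Nd6 and Cox6a2 in each library (CPM, numbered by replicate; WT grey, Isl1Cre/+ blue, mutant orange), and Cox6a2, Cox8b and Cox6b2 against the summed level of 10 skeletal muscle markers (CPM, both axes log, same colours). All mt-Nd6 values of Isl1Cre/+ lie below those of the other genotypes, and mutant 2 has the highest Cox6a2 level (20.2 CPM) and marker sum (2738 CPM).

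By complex, the median log2 fold change of the nuclear members in mutant against Isl1Cre/+ was 0.08 in complex I (32 of 36 higher), 0.01 in II (2 of 4), 0.09 in III (8 of 8), 0.10 in IV (13 of 14) and 0.10 in V (15 of 17). Only 4 of 79 had a fold change of at least 1.2 in either direction. Cox6a2, Cox8b and mt-Nd6 had the largest differences of all members. The abundant subunits Atp5b (0.05 ± 0.07, SE), Atp5a1 (0.01 ± 0.07), Cox6b1 (-0.04 ± 0.07) and Sdhb (-0.01 ± 0.07) differed by less than their errors. The number of calls depended on single libraries. It was 18 of 92 (19.6%) without mutant 3, beside 2.46% of all genes, and 2 (2.17%) without Isl1Cre/+ 1, namely mt-Nd6 and Cox6a2, beside 1.27%. It was 4 without mutant 1 (4.35%, beside 3.08%), 5 without mutant 2 (5.43%, beside 1.64%), 4 without Isl1Cre/+ 2 (4.35%, beside 1.73%) and 6 without Isl1Cre/+ 3 (6.52%, beside 1.27%).

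By genotype, Isl1Cre/+ and WT differ by the Isl1Cre allele, and the labels give no litter or background. In this comparison 3 of the 92 members met the criterion, all lower in Isl1Cre/+, where 1.4% of all genes did (1.14% as lower). They were mt-Nd6, given above, Cox6a2 (-1.57 ± 0.51, SE) and Cox8b (-1.72 ± 0.68), and none passed Benjamini-Hochberg adjustment in edgeR (adjusted p = 0.9999, 0% of all genes). Of 15 other settings and left-out libraries, 4 ended the call of Cox6a2 and 7 that of Cox8b. The largest differences were those of Cox8b, Cox6a2 and mt-Tm, the tRNA for methionine, with -1.26 ± 0.76. mt-Tm had 988 counts in WT 1 and 104 to 338 in all other libraries. The groups of Cox6a2 and Cox8b overlapped, and again all 10 muscle and all 7 red cell markers met the criterion in the same direction.

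All 8 tested mitochondrial mRNAs had negative log2 fold changes, from -0.73 to -0.42 with a median of -0.63. This median was -0.02 without WT 1. Of the nuclear members 19 of 79 were higher in Isl1Cre/+ (median -0.06), beside 49.3% of all genes. Without WT 1, 56 were higher (median 0.04), beside 49.4% of all genes, and without WT 2, 10 were, beside 50.6%. Without WT 3, 8 members (8.7%) met the criterion, beside 1.77% of all genes, with mt-Nd6 as the only one shared with the 3. The number was 2 (2.17%) without WT 1, Isl1Cre/+ 1 or Isl1Cre/+ 3, beside 2.58%, 1.21% and 0.773% of all genes. It was 3 (3.26%) without WT 2 or Isl1Cre/+ 2, beside 2.09% and 1.27%. Groups did not overlap in 3 of 92 members (3.26%), mt-Nd6, Ndufb3 and Atp5mpl, beside 6.63% of all genes.

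**Figure D4:**
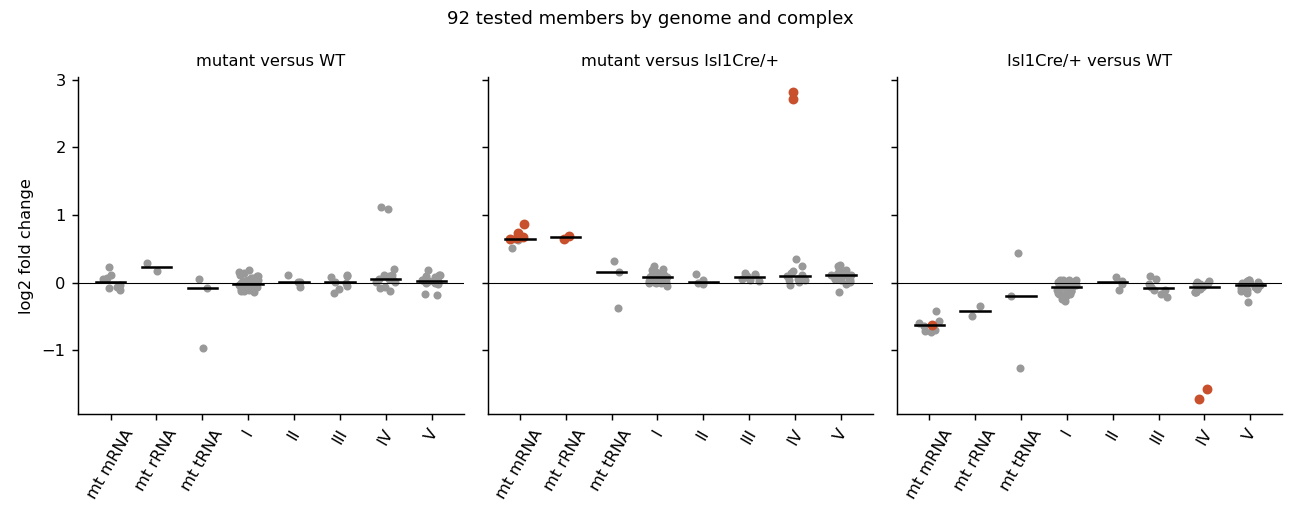
Log2 fold changes of the 92 tested members in the 3 comparisons, grouped as mitochondrial mRNAs, rRNAs and tRNAs and as nuclear members of complexes I to V, with a bar at each median. Orange points met the criterion (0, 9 and 3 members), and the mitochondrial mRNAs have medians of 0.004, 0.65 and -0.63.

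WT 1 was also the library with the widest differences among the nuclear members. In it 38 of 76 members (50%, muscle and testis isoforms left out) differed by at least 1.2-fold from their median over the 9 libraries, 35 of them upwards, with a range of -0.50 to 0.90 on the log2 scale. In the other libraries 0 to 6 did, beside 37.8% of all genes in WT 1 and 4.51% to 17.7% elsewhere. Uqcr11, a small subunit of complex III, had 2353 counts in WT 1 and 1061 to 1587 elsewhere, and Ndufb7 had 2384 against 1166 to 1634. Ndufc2 moved the other way, with 1710 counts against 2080 to 2768. The correlation of the differences with GC content over the 76 members was 0.44 in WT 1 and -0.46 to 0.59 over the 9 libraries, highest in Isl1Cre/+ 1, so on this measure WT 1 did not stand apart among the members. Genes of 1 library share its preparation and depth, and these correlations are given as a description.

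**Figure D5:**
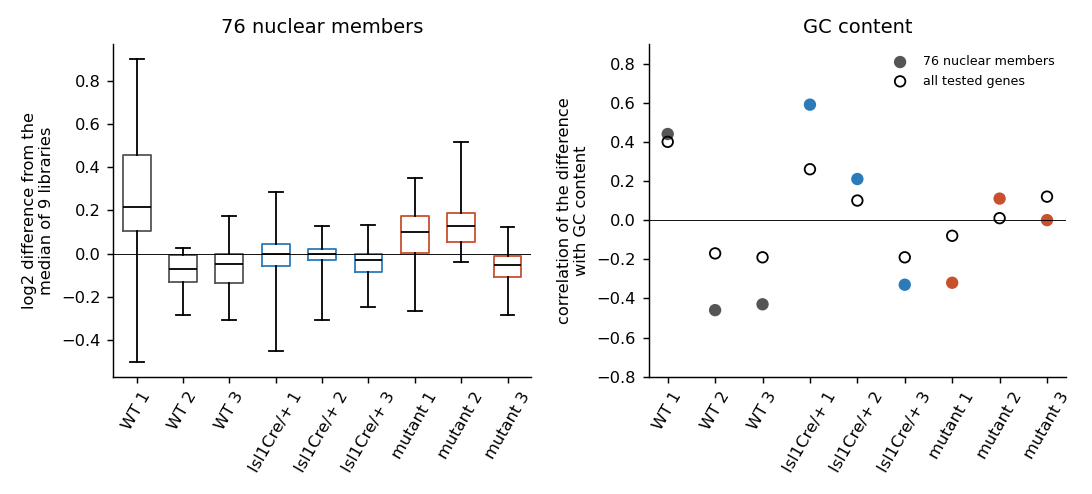
Left, log2 difference of 76 nuclear members from their median over the 9 libraries, as boxes (quartiles and median) with whiskers to the lowest and highest member. Right, correlation of the differences in each library with the GC content of the longest annotated transcript of each gene. It is shown over the 76 members (filled) and over all tested genes (open). WT 1 reaches from -0.50 to 0.90 with a median of 0.22, and its correlation over the members, 0.44, lies below the 0.59 of Isl1Cre/+ 1.

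Other genes of mitochondria and energy metabolism were taken as lists. In mutant against WT and in Isl1Cre/+ against WT no gene of the 9 lists met the criterion. In mutant against Isl1Cre/+ 1 did, Mrps28 of the small mitochondrial ribosome subunit (0.35 ± 0.10, SE, groups not overlapping), among 77 tested genes of the mitochondrial ribosome, where 1.67% of all genes met the criterion and 8.08% did not overlap. The mutant libraries of Mrps28 (8.57, 9.76 and 10.23 CPM) also all lay above the WT ones (7.46, 7.91 and 8.32 CPM). In mutant against WT 2.61% of all genes did not overlap. The paper, with limma voom, lists Mrps28 among the genes changed against both WT and Isl1Cre/+, unlike the edgeR fit here. In the mitochondrial ribosome list 61 of 77 genes were higher in mutant against Isl1Cre/+ (median 0.06), and in Isl1Cre/+ against WT 15 of 77 were higher (median -0.05), the same directions as for the nuclear members and with the same libraries. No call was made among 44 assembly factors, 16 genes for transcription and upkeep of mitochondrial DNA, 18 for processing of its RNA, 11 regulators of mitochondrial biogenesis, 21 import genes, 18 of the citric acid cycle, 17 of glycolysis and 13 electron carriers and further subunits, a list that also holds the member Atp5md. Medians for transcription and upkeep of mitochondrial DNA were -0.02, 0.02 and 0.01 in mutant against WT, mutant against Isl1Cre/+ and Isl1Cre/+ against WT.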

How the data were processed

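The deposited table holds raw counts per gene in 9 libraries. Per the labels and methods, the authors enriched poly(A) RNA, made libraries carrying unique molecular identifiers, sequenced single-end reads of 84 bases, aligned them to mm10 with STAR 2.7.10, removed duplicates, kept uniquely mapped reads and made these counts with HTSeq 0.6. Annotation release and strand option are not given in the sources used here. The 18 columns of the authors' limma fits (log2 fold change, mean expression, moderated statistic, p, adjusted p and log odds for each pair of genotypes) were not used.

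Samples were grouped by their labels. Genes reaching 100 counts in any library (13200) were tested with edgeR 4.0.16 in R 4.3.3 (TMM, two-sided quasi-likelihood test, each pair of genotypes fitted alone, Benjamini-Hochberg over all genes tested). Differences are log2 fold changes ± SE of these fits, and levels are counts scaled to a library of 1000000 (CPM), divided by the summed exon length in GENCODE M21 where genes are compared. Of the gene identifiers, 55154 were found in that release. Depth was 23854607 to 29103444 counts, so for abundant members the spread between libraries limits the precision. The fits were checked on simulated counts, drawn for each gene separately. These hold no shift shared by the genes of a library, so the check does not cover such shifts.

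The members, lists and tests were chosen with earlier results of these data known. Named are the members that met the criterion, the most and least abundant ones per length, the 3 largest differences in each comparison, the tissue isoforms with their partners, Cox7a2l, Ndufa4 and the nuclear copies. Atp5md and Atp5g1, Ndufa8, Atp5f1, Ndufb3, Atp5mpl, Ndufb7, Ndufb8, Uqcr11, the genes with a motif and the mitochondrial mRNAs of intermediate level were named after their values were seen. Alternatives were DESeq2's size factors, library size only, scaling without mitochondrial genes, other filters, DESeq2 1.42.0, limma 3.58.1 (voom), all genotypes in 1 fit, robust fitting, the replicate number as a block and each library left out.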

Additional observations from a re-analysis of the deposited data

How the results depend on the processing

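In mutant against Isl1Cre/+, the 9 members meeting the criterion became 21 of 113 tested without a filter on low counts (18.6%, beside 3.18% of all genes), 3 with limma voom (3.26%, beside 1.17%), 4 with all 3 genotypes in 1 fit (4.35%, beside 1.45%), 5 with robust quasi-likelihood (5.43%, beside 1.32%) and 0 at an adjusted p under 0.05, and ranged from 2 to 18 with 1 library left out. In Isl1Cre/+ against WT, the 3 became 9 of 114 without the filter (7.89%, beside 2.6% of all genes), 1 with at least 100 counts in every library (1.12%, beside 0.86%), 1 with limma voom (1.09%, beside 1.06%), 1 with all genotypes in 1 fit (1.09%, beside 0.955%) and 0 at an adjusted p under 0.05, with 2 to 8 when 1 library was left out. In mutant against WT the 0 ranged from 0 to 4 with 1 library left out. The nuclear members higher ranged from 28 to 78 of 79 (mutant against WT), 56 to 76 (mutant against Isl1Cre/+) and 10 to 56 (Isl1Cre/+ against WT) with 1 library left out, and with library size only were 59 in mutant against Isl1Cre/+, where 39.9% of all genes were higher, and 32 in Isl1Cre/+ against WT, where 60% were. The median of the mitochondrial mRNAs in Isl1Cre/+ against WT ranged from -0.886 to -0.0202. Scaled to 1000000 counts outside the mitochondrial chromosome, the summed nuclear level was 10527.8 CPM in WT, 10246.8 in Isl1Cre/+ and 10737.6 in mutant libraries. No called member reversed its direction under any setting run, and the causes of these changes were not tested.

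Replicate numbers carry no litter or batch in the labels. Deviations of libraries with the same number had correlations of -0.595 to 0.389 and did not pair the libraries. With the replicate number as a block, 0 members met the criterion in mutant against WT (beside 0.235% of all genes), 3 in mutant against Isl1Cre/+ (3.26%, beside 1.34%) and 2 in Isl1Cre/+ against WT (2.17%, beside 1.79%). Not every library correlated best with its own number. The depth does not limit the abundant members. The 5 mitochondrial mRNAs with under 100 counts could not be compared.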

Other observations

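The 22 mitochondrial tRNAs, which link amino acids to codons in mitochondrial translation, are 59 to 75 bases long. In 6 of them no library had a count, which allows up to 3 counts in each, and 13 others stayed below 100 counts in every library. The 3 tested were mt-Tl1 (374 to 1027 counts), mt-Tm (104 to 988) and mt-Tt (38 to 112). In mutant against Isl1Cre/+ the log2 fold change was 0.15 ± 0.32 (SE) for mt-Tl1, 0.32 ± 0.35 for mt-Tm and -0.37 ± 0.40 for mt-Tt, each smaller than its own error. A second row named Atp5o, at 0 in all libraries, overlaps the first on chromosome 16.

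Gm13340 on chromosome 2 (chr2:22588103-22589647 of mm10) holds a copy of the whole of mt-Co1 with 37 differences and had 290 to 1091 counts. Its highest count was in WT 1 and its second highest, 616, in mutant 1, as for mt-Co1. The counts of Gm10925, the copy of mt-Atp6, were 398 in WT 1, 150 in mutant 2, 131 in mutant 1 and 57 to 112 in the other libraries.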
